A study of Mus musculus with 12 samples.

Results

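The genes described here are 41 genes of the lysosome, listed by name. They comprised 9 cathepsins, 16 other hydrolases, 2 soluble cofactors, 6 membrane proteins, 6 genes of the v-ATPase proton pump, and the 2 transcription factors Tfeb and Tfe3. All 41 were found among the 54446 genes counted in each library, and all 41 passed the filter on low counts in every comparison. The libraries came from CD11b+ myeloid cells of MC38 tumors, a mouse colon carcinoma line grown in WT mice, which here were Ythdf2 fl/fl animals on the C57BL/6J background, male and female, aged 8 to 10 weeks. Tumors were left unirradiated (Ctrl) or received a single local dose of 20 Gy (IR), and cells were collected 3 days after IR. Each condition had 3 replicates, described as cells pooled from 5 mice per replicate, and every lysate gave an Input library and a YTHDF2 immunoprecipitate (IP), for 12 libraries. The study's methods call these replicates technical, and whether they were separate pools of mice or aliquots of 1 pool is not clear. SDs, SEs and p-values therefore measure the spread between these replicates only, which may be technical, and they are called pools below. Both conditions used this genotype. No library with a control antibody was analysed here, so RNA carried along without YTHDF2 is not measured.

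Lysosomes are acidic compartments that break down proteins, glycans, lipids and nucleic acids, and macrophages, monocytes and other phagocytes are rich in them. The v-ATPase pumps protons into the lumen, where the cathepsins and the other acid hydrolases work, and TFEB and TFE3 bind a short palindrome, the CLEAR element, in the promoters of many of these genes. YTHDF2 is a cytoplasmic reader of m6A that recruits deadenylases to its bound mRNAs, and the ratio of IP to Input is read as how strongly a transcript is held relative to its abundance.

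The CLEAR element is shown because it ties the transcription factors of the set to the genes they are known for. RefSeq promoters (GRCm38.p6, 250 bases before to 50 bases after the start) were at hand for 34 of the 41 genes. TCACGTGA, which is its own reverse complement, was present in 7 of them (20.6%), against 304 of 27025 promoters in all (1.12%). Its core CACGTG, which every TCACGTGA also holds, was present in 13 of the 34 (38.2%) and in 8.09% of all promoters. The 9 matches are printed 5′ to 3′ on the strand of the gene, with TCACGTGA in capitals. A match is a description of the letters and not a measured binding site.
Ctsa, chr2:164833749-164833778 (+): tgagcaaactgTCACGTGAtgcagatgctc
Ctsa, chr2:164833766-164833795 (+): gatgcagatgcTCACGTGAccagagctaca
Ctsd, chr7:142387908-142387937 (-): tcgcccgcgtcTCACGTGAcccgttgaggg
Cln3, chr7:126583340-126583369 (-): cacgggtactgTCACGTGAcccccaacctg
Mcoln1, chr8:3500462-3500491 (+): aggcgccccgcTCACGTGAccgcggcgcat
Atp6v0d1, chr8:105566050-105566079 (-): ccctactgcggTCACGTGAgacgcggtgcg
Atp6v1a, chr16:44139373-44139402 (-): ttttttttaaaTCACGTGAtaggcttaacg
Gla, chrX:134601215-134601244 (-): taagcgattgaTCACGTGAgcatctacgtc
Gla, chrX:134601182-134601211 (-): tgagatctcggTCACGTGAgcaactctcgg

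The Inputs held 34445784 to 42382532 reads on genes and the IPs 27852948 to 33882664, so that 3 counts, taken as the limit of detection, were worth 0.0738 to 0.112 CPM. The lowest count of any of the 41 genes in any library was that of Ctsk, at 59. Counting intervals and this limit cover counting error only. Among uniquely aligned reads, the share on no gene was 27.0% ± 0.026 (Ctrl) and 24.7% ± 0.066 (IR) for Inputs, and 42.3% ± 0.46 (Ctrl) and 51.4% ± 2.43 (IR) for IPs (SD, n = 3), with 54.1% for IR replicate 1. Of the genes that mark the sorted class, Itgam, Lyz2, Cd14 and Tyrobp summed to 3650 to 3750 CPM in the Ctrl Inputs and 4659 to 4682 CPM in the IR Inputs, while 8 T and NK cell markers summed to at most 5.97 CPM. Of 8 neutrophil markers, 6 were higher and 0 lower in the IR Inputs, where 21.0% and 23.9% of all genes tested were, and their sum went from 10429 to 11118 CPM in Ctrl to 13388 to 13956 CPM in IR. Of 8 macrophage markers, 4 were higher and 4 lower, with sums of 445 to 457 CPM in Ctrl and 423 to 447 CPM in IR. Sums of monocyte markers (1551 to 1637 against 1770 to 1890 CPM) and dendritic cell markers (224 to 228 against 267 to 273 CPM) were higher in the IR Inputs, and that of tumor epithelium markers was lower (119 to 127 against 90.9 to 96.9 CPM), all without overlap. Of 5 monocyte markers, 3 were higher and 2 lower, and of 5 dendritic cell markers tested, 2 were higher and 2 lower. Of the 4 genes of the sorted class, 2 were higher and 0 lower. Sums of B cell (18.6 to 20.0 against 25.2 to 27.8 CPM), fibroblast and endothelium markers (72.3 to 80.2 against 94.4 to 98.3 CPM) were also higher without overlap. Those of T and NK cell and of osteoclast markers were lower without overlap. Single markers behind these sums often disagreed. Of 4 B cell markers tested, 1 was higher and 2 lower, and of 3 endothelium markers tested, 2 were higher and 1 lower. Only 1 fibroblast marker could be tested, and it was higher. Of 4 T and NK cell markers tested, 1 was higher and 1 lower, and of 5 osteoclast markers tested, 2 were higher and 1 lower. Of 2 tumor epithelium markers tested, 0 were higher and 1 lower. In such bulk samples, more cells of a type and more RNA per cell cannot be told apart.

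In the Input, which measures transcript abundance, the 41 genes together made up 0.878% ± 0.023 of all gene counts in Ctrl and 0.975% ± 0.018 in IR (SD, n = 3). In the IP they made up 0.504% ± 0.0085 in Ctrl and 0.559% ± 0.0093 in IR. The IP share was thus below the Input share in every pool, and the IR values were above the Ctrl values in both fractions without overlap. On the TMM scale, which corrects for a few abundant RNAs that take up reads, the summed IP level instead went from 5352 ± 14.2 CPM in Ctrl to 5123 ± 105 CPM in IR, so its direction with IR depended on the scaling. Per kilobase of exon, Psap had the highest Input level of the set (792 CPM per kb, 48th among 13019 protein-coding genes), followed by Ctsz (573), Ctss (479) and Ctsd (340). The lowest levels were those of Atp6v1h (3.01 CPM per kb), Ids (3.22) and Arsb (3.69).

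Most of these transcripts were depleted from the YTHDF2 IP. In Ctrl, IP was below Input for 34 of the 41 genes, where 34.6% of all 17416 genes tested were lower, and 7 were higher, where 34.1% of all genes were. In IR, 34 were lower and 4 higher, against 30.4% and 32.1% of 18650 genes. The 41 genes had a median IP over Input of -0.98 (Ctrl) and -1.02 (IR) on the log2 scale, and all genes tested had medians of 0.018 and 0.10. Every one of these calls had the same sign in all 3 pools, and how often this held over all genes called was not counted. The 4 genes higher in IP in both conditions were Neu1, Naglu, Tfeb and Mcoln1, while Ctsz and Cln3 were higher in Ctrl and lower in IR. Library size in place of TMM moved the median of all genes by -0.18 in Ctrl and by 0.15 in IR. The difference between the median of the 41 genes and that of all genes was -0.99 in Ctrl and -1.12 in IR. The scalings move all genes alike and so cannot change it. This difference was -0.94 in Ctrl and -0.92 in IR with at least 10 counts in every library, and -1.58 and -2.06 with no filter on low counts. Depletion was not particular to these genes. Median IP over Input in Ctrl and IR was -2.68 and -2.71 for monocyte, -1.46 and -2.07 for neutrophil and -1.37 and -1.84 for sorted class markers. It was -0.85 and -0.77 for macrophage markers, and 0.18 and -0.23 for dendritic cell markers.

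**Figure D1:**
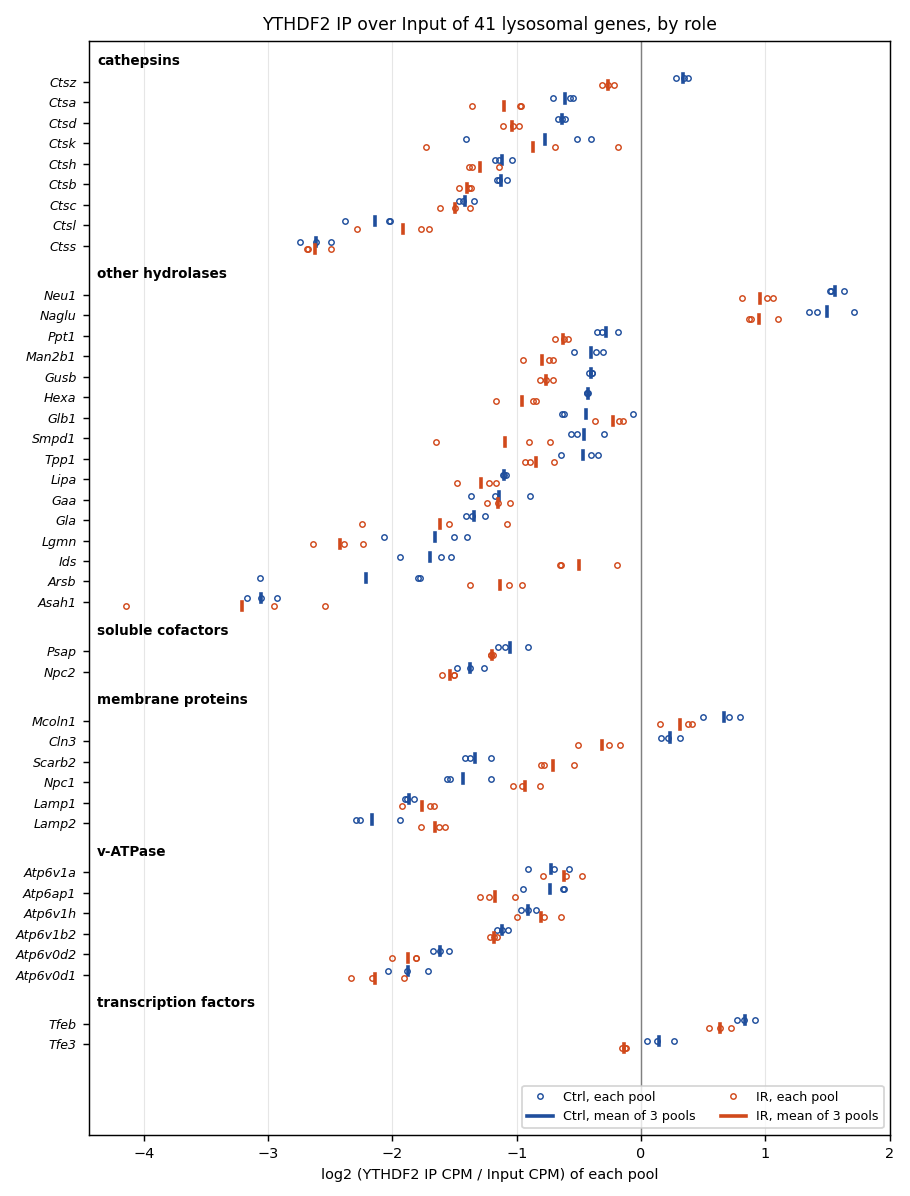
The log2 ratio of IP CPM to Input CPM is plotted on the horizontal axis for each of the 3 Ctrl pools (blue circles) and 3 IR pools (orange circles) of the 41 genes, grouped by role, with bars at the means of 3 pools. Most genes lie left of 0, and Neu1, Naglu, Tfeb and Mcoln1 lie right of it in all 6 pools. CPM is on the TMM scale of all 12 libraries, so ratios differ slightly from the fitted fold changes of each comparison.

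With IR, abundance in the Input rose for 23 of the 41 genes and fell for 7, against 21.0% and 23.9% of 16914 genes tested. The changes were small, with log2 fold changes from -0.72 to 0.52 and a median of 0.14 (0.0072 over all genes). All 23 that rose had no overlap between the 3 Ctrl and 3 IR Inputs, and of the 7 that fell 3 (Arsb, Scarb2 and Ctsc) were so separated. How often this held over all genes called was not counted. Leaving out the libraries numbered 2 or 3 lowered the count that fell to 4 and 3. With all 12 libraries in 1 fit, Arsb was the 1 gene of the 7 called as lower, and Ctsc (-0.15, adjusted p = 0.098, edgeR) and Scarb2 (-0.20, adjusted p = 0.062) were not past the threshold. That fit shifted the Input changes of all genes by a median of 0.079. Of the 23 that rose, 20 kept their call in that fit, and Lgmn (0.30), Gla (0.36) and Atp6v0d2 (0.21) did not. In the same Inputs the summed markers of the sorted class, of neutrophils, monocytes and dendritic cells rose, as did those of B cells, fibroblasts and endothelium. Those of tumor epithelium, T and NK cells and osteoclasts fell. Single markers of monocytes, dendritic cells, B cells, endothelium, T and NK cells and osteoclasts went both ways, and only 1 fibroblast marker was tested. The part of the cell mixture in these changes was not tested.

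In the IP itself, 6 genes were higher in IR and 3 lower, against 6.12% and 9.85% of 19255 genes. Those higher were Ctsd, Ctss, Npc2, Lamp2, Scarb2 and Ids, and those lower were Ctsz, Cln3 and Neu1. Without the libraries numbered 2, 1 gene remained higher, Ids. Library size in place of TMM gave 18 genes higher.

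The change of the IP-to-Input ratio with IR, tested as the interaction of fraction and condition, was lower at 16 genes and higher at 5, against 13.9% and 6.28% of 20720 genes. The median was -0.20 for the 41 genes and -0.083 for all genes. This split depended on the scaling. Library size in place of TMM moved the median of all genes by 0.31 and gave 2 genes lower, Ctsz and Neu1 of the 16, and 10 higher, which held all 5, and the median of the 41 genes then stood at 0.11, below the 0.23 of all genes. Relative to the median of all genes, the 41 genes were at -0.12 under both scalings, which move all genes alike and so cannot change this difference. It was -0.04 with at least 10 counts in every library and -0.32 with no filter on low counts. Without the libraries numbered 1, 2 or 3 there were 10, 10 and 12 lower and 4, 4 and 3 higher. Without the IP of IR replicate 1, the library with the most reads outside genes, there were 18 lower and 6 higher. The changes in Input, in IP and in their ratio share libraries and are not independent of each other.

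**Figure D2:**
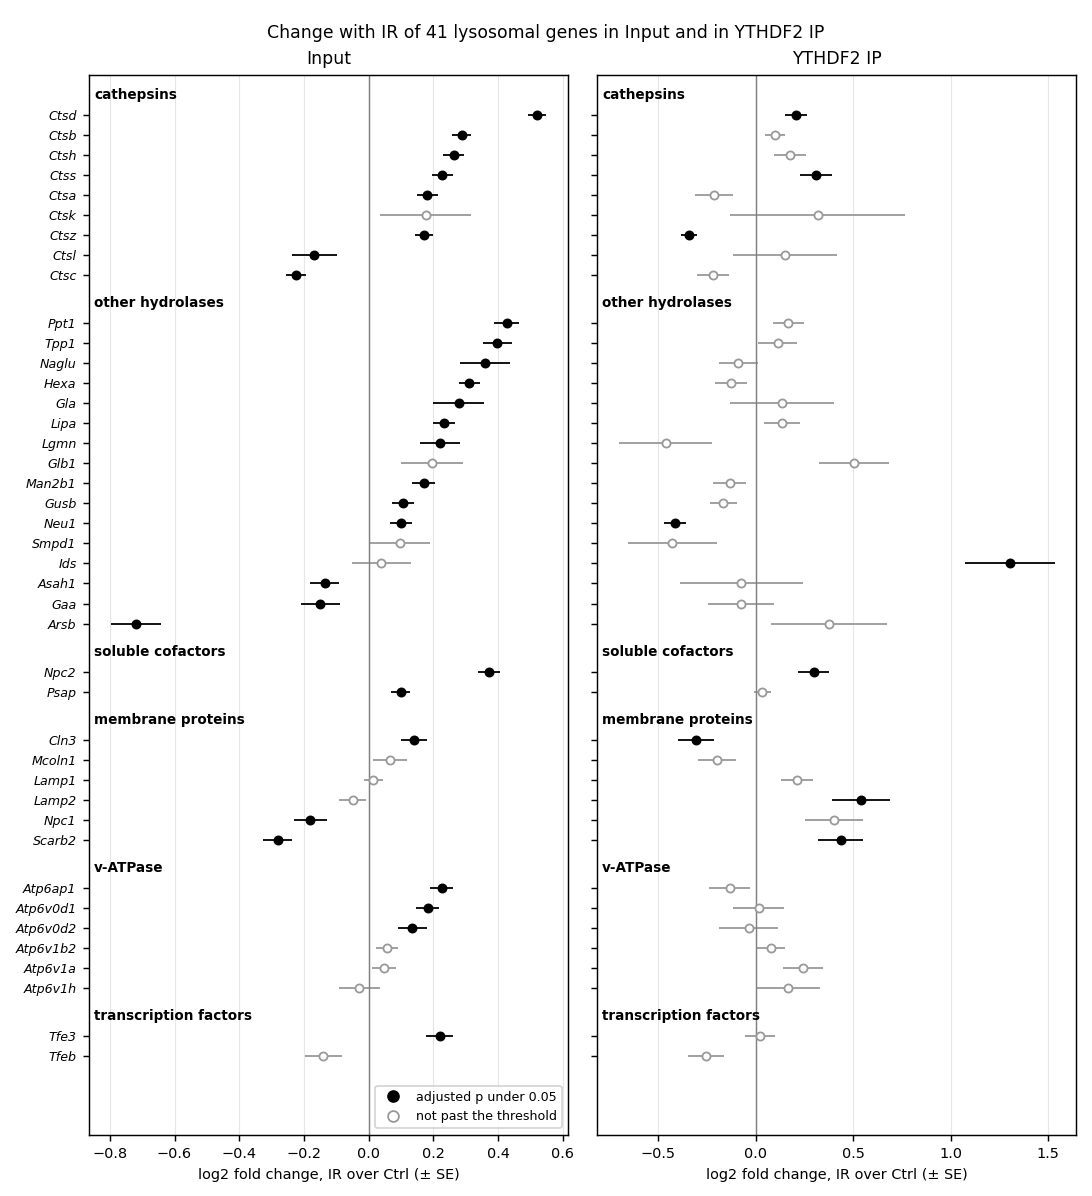
Log2 fold changes of IR over Ctrl (horizontal axes, with standard errors) are plotted for the 41 genes by role in the Input (left) and in the YTHDF2 IP (right), with filled points for adjusted p under 0.05. In the Input, filled points to the right of 0 number 23 and those to the left 7, while most points in the IP are open. The horizontal axes of the panels have different ranges.

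Among the 9 cathepsins, the proteases of the lumen, 8 were lower in IP in Ctrl and 8 in IR (34.6% and 30.4% of all genes). In the Input with IR, 6 rose and 2 fell (21.0% and 23.9% of all genes). Ctss, a cysteine protease that trims the invariant chain for antigen presentation, had 561, 597 and 588 CPM in Input and 99.8, 97.7 and 87.7 in IP for the Ctrl pools. For the IR pools it had 693, 752 and 713 CPM in Input and 123, 117 and 111 in IP. Every IP was far below every Input, and each fraction was higher in IR without overlap. IP over Input was -2.54 on the log2 scale in Ctrl (SE 0.050, adjusted p = 2.5e-17, by the quasi-likelihood test of edgeR and the Benjamini-Hochberg method, as for every adjusted p here) and -2.56 in IR (SE 0.054), and the ratio did not pass the test for a change (-0.01, adjusted p = 0.982), though under library size it was 0.31 and past the threshold. The Input rose by 0.23 and the IP by 0.31, the latter not past the threshold without the libraries numbered 2 (0.35).

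Ctsz, a carboxypeptidase, was the only cathepsin above Input in Ctrl and the most abundant of them per kilobase. It had 758, 756 and 747 CPM (Ctrl) and 882, 910 and 897 (IR) in the Inputs, and 921, 961 and 972 (Ctrl) and 733, 730 and 773 (IR) in the IPs. The order of the fractions turned over, with all Ctrl IPs above and all IR IPs below their Inputs. The log2 ratio was 0.41 in Ctrl (SE 0.035, adjusted p = 8.99e-09, edgeR) and -0.21 in IR (SE 0.037, adjusted p = 4.92e-04), and its change was -0.60 (SE 0.048, adjusted p = 1.95e-08), also past the threshold under library size. The value in IR was not past the threshold under library size (-0.06), when scaling and test used nuclear protein-coding genes alone (-0.08) or without the libraries numbered 2 (-0.12).

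Ctsd, the main aspartic protease, showed the largest rise of the 41 genes in the Input. It had 611, 653 and 644 CPM (Ctrl) and 951, 974 and 965 (IR) in the Inputs, and 385, 421 and 422 (Ctrl) and 440, 493 and 473 (IR) in the IPs. Both fractions were higher in IR without overlap, the Input by 0.52 (SE 0.029, adjusted p = 4.49e-14, edgeR) and the IP by 0.21 (adjusted p = 0.0196), which was 0.21 but not past the threshold without the libraries numbered 2. IP over Input went from -0.56 to -0.99, a change of -0.40 (SE 0.064, adjusted p = 1.06e-04) that was -0.09 and not past the threshold under library size (adjusted p = 0.344). Exons of Gm49369 on the same strand cover 34.4% of the Ctsd exons, so its counts leave out reads that could not be assigned.

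Ctsc, which activates the serine proteases of granules, fell in the Input from 339, 349 and 359 CPM to 309, 318 and 320, by 0.22 on the log2 scale (SE 0.031, adjusted p = 1.31e-06, edgeR). Its IPs were at 123, 137 and 133 CPM in Ctrl and 101, 113 and 123 in IR, all far below the Inputs. The other 5 cathepsins, Ctsa, Ctsb, Ctsh, Ctsk and Ctsl, had IP over Input from -2.06 (Ctsl) to -0.53 (Ctsa) in Ctrl. Ctsb, a broad cysteine protease, rose in the Input by 0.29, and its ratio changed by -0.28, a value that was -0.19 and not past the threshold without the libraries numbered 2 and 0.04 under library size. Ctsk, the collagenase of osteoclasts, was the exception to the depletion in IR (-0.62, adjusted p = 0.208, edgeR). With IP and Input of a pool as a replicate block it was -0.79 and past the threshold, as it was without the IP of IR replicate 1 (-1.12), and in Ctrl it was -0.37 and not past it without the libraries numbered 3.

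The 16 other hydrolases act on glycans, lipids and peptides. Of these, 14 were lower in IP in Ctrl and 13 in IR (34.6% and 30.4% of all genes). Neu1, the sialidase, was the most enriched of the 41 genes. The Ctrl pools had 175, 177 and 174 CPM in Input and 541, 509 and 504 in IP, and the IR pools 196, 196 and 204 in Input and 394, 408 and 358 in IP. Each IP was well above its Input, the IR IPs were below the Ctrl IPs and the IR Inputs were above the Ctrl Inputs, all without overlap. IP over Input was 1.64 in Ctrl (SE 0.041, adjusted p = 4.33e-16, edgeR) and 1.01 in IR (SE 0.055, adjusted p = 4.13e-08), with a change of -0.60 (SE 0.068, adjusted p = 1.84e-06). The IP fell by 0.41 and the Input rose by 0.10, the latter not past the threshold without the libraries numbered 3 (0.07).

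Naglu, which removes N-acetylglucosamine from heparan sulfate, was the other enriched hydrolase. It had 16.6, 19.3 and 19.3 CPM (Ctrl) and 24.5, 26.5 and 23.9 (IR) in the Inputs, and 54.4, 51.4 and 49.2 (Ctrl) and 45.2, 48.3 and 51.4 (IR) in the IPs. The Inputs were separated between conditions, whereas the IPs overlapped. IP over Input was 1.56 in Ctrl and 1.01 in IR, and the change of -0.54 (SE 0.13, adjusted p = 0.0052, edgeR) was not past the threshold without the libraries numbered 1 (-0.37) or 2 (-0.50) or under library size (-0.23).

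Asah1, the acid ceramidase, was the most depleted of the 41 genes. Its Inputs had 64.2, 67.0 and 68.1 CPM in Ctrl and 65.6, 64.0 and 61.9 in IR, and its IPs 8.42, 8.03 and 7.56 in Ctrl and 3.70, 10.99 and 7.99 in IR. IP and Input were far apart, while the IR IPs were spread on both sides of the Ctrl IPs. Its log2 ratio was -2.97 in Ctrl (SE 0.086, adjusted p = 3.37e-15, edgeR) and -3.02 in IR (SE 0.28, adjusted p = 3.58e-06). The Input fell by 0.14, with overlap, and not past the threshold without the libraries numbered 2 (-0.14) or 3 (-0.10).

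Ids and Arsb, a pair of sulfatases of dermatan sulfate breakdown, had the largest rises of the ratio. Ids had 15.5, 15.2 and 16.6 CPM (Ctrl) and 18.1, 14.7 and 18.4 (IR) in the Inputs, and 4.03, 4.97 and 5.74 (Ctrl) and 11.5, 12.8 and 11.8 (IR) in the IPs. Its Inputs overlapped, whereas its IPs were 2.47-fold higher in IR without overlap, 1.30 on the log2 scale (SE 0.23, adjusted p = 8.46e-04, edgeR). The ratio changed by 1.18 (SE 0.22, adjusted p = 5.17e-04), from -1.61 to -0.45, and the depletion in IR was not past the threshold without the libraries numbered 1 (-0.31) or 3 (-0.30) or without the IP of IR replicate 1 alone (-0.34), or under library size (-0.30).

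Arsb differed in that its Input fell. It had 25.7, 26.2 and 29.6 CPM (Ctrl) and 18.4, 17.1 and 16.7 (IR) in the Inputs, and 7.40, 7.62 and 3.54 (Ctrl) and 8.80, 6.58 and 8.63 (IR) in the IPs. The Inputs did not overlap and the IPs did. The Input fell by 0.72 (SE 0.077, adjusted p = 1.61e-08, edgeR), the largest fall of the 41 genes, and the ratio changed by 1.003 (SE 0.29, adjusted p = 0.0158), which was not past the threshold without the libraries numbered 1 (1.18) or 3 (0.61). Gm26527 on the opposite strand covers 32.3% of the Arsb exons, and the strand setting of the counting is not given in the sources used here.

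Hexa and Gusb, exoglycosidases of ganglioside and glycosaminoglycan breakdown, were moderately depleted. Hexa had 207, 214 and 205 CPM (Ctrl) and 272, 277 and 270 (IR) in the Inputs, and 153, 160 and 151 (Ctrl) and 121, 152 and 150 (IR) in the IPs. Gusb had 180, 172 and 172 CPM (Ctrl) and 196, 199 and 200 (IR) in the Inputs, and 135, 131 and 130 (Ctrl) and 120, 113 and 118 (IR) in the IPs. For both genes the Inputs were higher in IR without overlap. The ratio of Hexa went from -0.35 to -0.90, a change of -0.52 (adjusted p = 2.91e-04, edgeR), and that of Gusb from -0.33 to -0.71, a change of -0.36 (adjusted p = 5.39e-04). Neither change was past the threshold under library size, and the Input rise of Gusb (0.11) was not past it without the libraries numbered 2 (0.09) or 3 (0.08).

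Ppt1 and Tpp1, a thioesterase and a peptidase whose loss causes neuronal ceroid lipofuscinosis, rose most in the Input after Ctsd. Ppt1 went from 93.6, 101 and 99.8 CPM to 140, 142 and 136, by 0.43 (SE 0.039, adjusted p = 8.36e-10, edgeR), with IPs at 82.3, 81.0 and 78.2 in Ctrl and 91.5, 87.6 and 90.4 in IR. Tpp1 went from 70.1, 80.4 and 74.8 CPM to 102, 106 and 106, by 0.40 (SE 0.045, adjusted p = 4.28e-08), with IPs at 55.2, 51.3 and 56.5 in Ctrl and 54.9, 65.0 and 55.4 in IR. Their Inputs rose without overlap, and their IPs, which did not pass the test, were separated between conditions for Ppt1 and overlapped for Tpp1. The ratios changed by -0.35 and -0.37, and under library size by -0.03 (adjusted p = 0.832, edgeR) and -0.06 (adjusted p = 0.777). Both changes were also not past the threshold without the libraries numbered 1 (-0.28 and -0.26), nor for Ppt1 without those numbered 2 (-0.30) or for Tpp1 without those numbered 3 (-0.27). The slight depletion of Ppt1 in Ctrl (-0.21) was -0.16 and not past the threshold without the libraries numbered 3.

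Lgmn, the asparaginyl endopeptidase that processes cathepsins, had the largest fall of the ratio. It had 29.1, 33.8 and 33.3 CPM (Ctrl) and 39.9, 40.3 and 38.3 (IR) in the Inputs, and 10.3, 8.06 and 12.6 (Ctrl) and 8.46, 7.70 and 6.15 (IR) in the IPs. The Inputs were higher in IR without overlap, and the IPs overlapped. IP over Input went from -1.57 to -2.35, a change of -0.77 (SE 0.21, adjusted p = 0.011, edgeR). This change was not past the threshold without the libraries numbered 1 (-0.77) or 3 (-0.51) or under library size (-0.45). The Input rise of 0.22 was 0.15 and not past the threshold without the libraries numbered 1. The other 6 hydrolases were depleted in Ctrl as well. Gla, Gaa and Lipa, the galactosidase, glucosidase and lipase lost in Fabry, Pompe and Wolman disease, stood at -1.27, -1.06 and -1.02 in Ctrl, and Man2b1, Glb1 and Smpd1 at -0.33, -0.37 and -0.39. Glb1 was the hydrolase not called in IR (-0.17, adjusted p = 0.277, edgeR), and its depletion in Ctrl was not past the threshold without the libraries numbered 2 (-0.27) or 3 (-0.26). That of Smpd1 was not past it without those numbered 1 (-0.31) or 2 (-0.36).

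**Figure D3:**
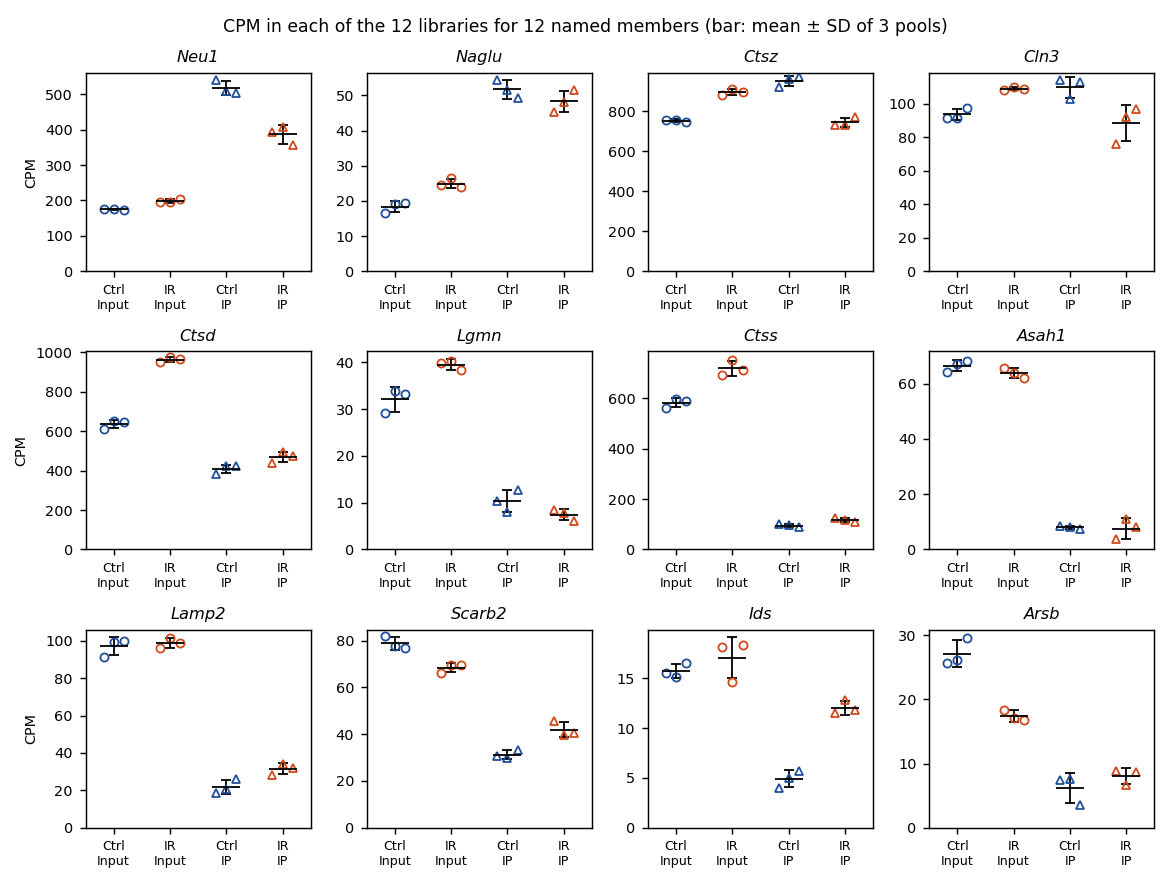
CPM (vertical axes, starting at 0, one scale per gene) in each of the 12 libraries is plotted for 12 genes, with circles for Input, triangles for IP, blue for Ctrl, orange for IR, and bars for mean ± SD of 3 pools. Neu1 and Naglu lie higher in IP than in Input, Ctsz and Cln3 cross over with IR, and the remaining 8 genes lie lower in IP in both conditions.

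Psap, the precursor of the saposins that present sphingolipids to their hydrolases, and Npc2, which carries cholesterol in the lumen, were depleted in both conditions. Psap had 1926, 2100 and 2098 CPM (Ctrl) and 2245, 2371 and 2307 (IR) in the Inputs, and 1026, 984 and 945 (Ctrl) and 984, 1027 and 998 (IR) in the IPs. Npc2 had 187, 205 and 200 CPM (Ctrl) and 267, 271 and 272 (IR) in the Inputs, and 78.2, 73.5 and 77.2 (Ctrl) and 94.4, 95.3 and 89.9 (IR) in the IPs. Both Inputs rose without overlap, and so did the IP of Npc2 but not that of Psap. Psap had a log2 IP over Input of -0.98 in Ctrl and -1.15 in IR, and Npc2 one of -1.30 and -1.48, and neither ratio passed the test for a change (adjusted p = 0.0516 and 0.13, edgeR), although that of Psap did with no filter on low counts (-0.17, adjusted p = 0.0257). The Input of Npc2 rose by 0.37 (SE 0.035, adjusted p = 1.31e-09) and its IP by 0.30, the latter 0.28 and not past the threshold without the libraries numbered 2.

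The 6 membrane proteins were divided in both comparisons. Lamp1 and Lamp2, the glycoproteins that line the membrane, were strongly depleted. Lamp1 had 435, 433 and 440 CPM (Ctrl) and 456, 472 and 466 (IR) in the Inputs, and 123, 116 and 120 (Ctrl) and 120, 146 and 147 (IR) in the IPs, and IP over Input was -1.79 and -1.70. Lamp2 had 91.5, 99.5 and 100.2 CPM (Ctrl) and 96.5, 102 and 99.0 (IR) in the Inputs, and 18.7, 20.7 and 26.2 (Ctrl) and 28.3, 34.2 and 32.2 (IR) in the IPs. The Inputs of Lamp2 overlapped and its IPs did not. Its ratio rose from -2.08 to -1.60, by 0.50 (SE 0.14, adjusted p = 0.0126, edgeR), and its IP by 0.54 (adjusted p = 0.0207), neither past the threshold without the libraries numbered 2 (0.44 and 0.47).

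Scarb2, the receptor that sorts glucocerebrosidase, had 82.1, 77.5 and 77.0 CPM (Ctrl) and 66.2, 69.6 and 69.8 (IR) in the Inputs, and 30.7, 29.8 and 33.3 (Ctrl) and 45.6, 39.7 and 40.7 (IR) in the IPs. With IR the Inputs were lower and the IPs higher, both without overlap. The Input fell by 0.28 (adjusted p = 9.9e-06, edgeR), the IP rose by 0.44 (adjusted p = 0.0156), and the ratio changed by 0.63 (SE 0.11, adjusted p = 2.18e-04). The IP rise was not past the threshold without the libraries numbered 1 (0.38) or 2 (0.47). The ratio of Npc1, the cholesterol exporter of the membrane, likewise changed by 0.49, from -1.34 to -0.87. This was not past the threshold without the libraries numbered 1 (0.49) or 3 (0.49).

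Cln3, a membrane protein mutated in juvenile ceroid lipofuscinosis, had 91.8, 91.9 and 97.5 CPM (Ctrl) and 108, 110 and 109 (IR) in the Inputs, and 114, 103 and 113 (Ctrl) and 76.2, 92.3 and 96.7 (IR) in the IPs. All Ctrl IPs were above and all IR IPs below their Inputs. IP over Input was 0.31 in Ctrl (SE 0.055, adjusted p = 8.38e-05, edgeR) and -0.25 in IR (SE 0.084, adjusted p = 0.0237), with a change of -0.53 (SE 0.11, adjusted p = 8.93e-04). Under library size the enrichment in Ctrl was 0.12 (adjusted p = 0.0611), the value in IR -0.10 and the change -0.22 (adjusted p = 0.141), none past the threshold. The call as lower in IR did not hold without the libraries numbered 1 (-0.09), 2 (-0.21) or 3 (-0.24), nor did the fall of its IP (-0.31, and -0.16, -0.36 and -0.34). The Input rise of 0.14 was 0.12 and not past the threshold without the libraries numbered 2. Mcoln1, the calcium channel of the lysosome, was above Input in both conditions (0.75 and 0.37), with a change of -0.35 that was not past the threshold without the libraries numbered 1 (-0.31), 2 (-0.43) or 3 (-0.23), and was -0.04 under library size (adjusted p = 0.888, edgeR).

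All 6 v-ATPase genes were depleted from the IP in both conditions, as were 34.6% (Ctrl) and 30.4% (IR) of all genes. Their IP over Input ran from -1.80 to -0.65 in Ctrl and from -2.07 to -0.56 in IR. Atp6v0d1, a subunit of the membrane sector, was the most depleted, with 144, 142 and 144 CPM (Ctrl) and 173, 167 and 175 (IR) in the Inputs, and 35.1, 43.4 and 39.1 (Ctrl) and 46.2, 37.3 and 34.8 (IR) in the IPs. Its Inputs rose by 0.18 without overlap (adjusted p = 1.14e-04, edgeR), and its IPs overlapped. Atp6v1b2, a subunit of the catalytic sector, had 218, 230 and 226 CPM (Ctrl) and 245, 252 and 244 (IR) in the Inputs, and 100.3, 103 and 108 (Ctrl) and 106, 111 and 109 (IR) in the IPs. Its Inputs did not overlap, and the difference of 0.06 was not past the threshold (adjusted p = 0.173, edgeR) but was with all 12 libraries in 1 fit (0.14, adjusted p = 0.0466). That fit shifted the Input changes of all genes by a median of 0.079. The IP of Atp6v1b2 was past the threshold under library size (0.28, adjusted p = 0.0104, edgeR). Atp6ap1, an accessory protein of the pump, had 112, 114 and 117 CPM (Ctrl) and 141, 143 and 140 (IR) in the Inputs, and 72.6, 74.0 and 60.6 (Ctrl) and 57.4, 61.2 and 69.3 (IR) in the IPs. It was the v-ATPase gene with a changed ratio (-0.45, SE 0.11, adjusted p = 0.00499), which was not past the threshold without the libraries numbered 1 (-0.31) or 2 (-0.33) or under library size (-0.14). Atp6v0d2, a subunit of macrophages and osteoclasts, rose in the Input by 0.14, but not past the threshold without the libraries numbered 1 (0.11) or 3 (0.14). Atp6v1a and Atp6v1h, of the catalytic sector, stood at -0.65 and -0.83 in Ctrl, and neither was called as changed with IR. For Atp6v1a the IP was past the threshold under library size (0.45, adjusted p = 0.00641, edgeR), with at least 10 counts in every library (0.30) and with all 12 libraries in 1 fit (0.23), and its ratio was under library size (0.42, adjusted p = 0.011).

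Of the transcription factors, Tfeb was enriched in both conditions. It had 39.2, 40.9 and 44.4 CPM (Ctrl) and 37.9, 40.4 and 41.2 (IR) in the Inputs, and 74.0, 70.0 and 78.9 (Ctrl) and 58.8, 66.6 and 60.3 (IR) in the IPs. Every IP was above every Input. The IPs were lower in IR without overlap, a difference of -0.25 not past the threshold (adjusted p = 0.0733, edgeR). It was past the threshold with no filter (-0.29) and with all 12 libraries in 1 fit (-0.26). The log2 ratio of IP to Input was 0.91 in Ctrl (SE 0.069, adjusted p = 2.11e-09, edgeR) and 0.69 in IR (SE 0.084, adjusted p = 3.22e-05), and the difference did not pass the test (-0.20, adjusted p = 0.236). The Input difference of -0.14 (adjusted p = 0.0503), with overlap, was past the threshold with the replicate block (adjusted p = 0.0324), under library size (-0.16) and with at least 10 counts in every library (-0.14). Tfe3 had 83.8, 82.1 and 79.5 CPM (Ctrl) and 104, 99.0 and 98.7 (IR) in the Inputs, and 86.6, 89.7 and 95.8 (Ctrl) and 93.4, 90.7 and 90.5 (IR) in the IPs. Its Inputs rose without overlap by 0.22 (SE 0.042, adjusted p = 9.44e-05), and its IPs overlapped. Its slight enrichment in Ctrl was not past the threshold under library size (0.04) or with no filter (0.11). The ratio of Tfe3 changed by -0.28 (SE 0.083, adjusted p = 0.0182), not past the threshold without the libraries numbered 2 (-0.27) or 3 (-0.20), and its sign was the opposite under library size (0.03).

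The 7 genes with TCACGTGA in the promoter stood beside the 27 without it as follows. In the Input with IR, 5 of 7 rose and 0 fell (median 0.18), and 15 of 27 rose and 5 fell (median 0.17). The ratio was lower in IR for 4 of 7 (median -0.35) and for 11 of 27 (median -0.18). Of all genes tested, 21.0% rose and 23.9% fell in the Input, and 13.9% had a lower ratio.

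The genes of the set differed from each other along gene length and GC content, features that were looked at after the values were seen. GC content was that of the coding transcript with the longest coding sequence, and gene length ran from gene start to end. Across the 41 genes, IP over Input in Ctrl had a Spearman correlation of 0.626 with GC content and of -0.444 with gene length. In IR these were 0.432 and -0.223, and the length of the coding sequence had 0.454 (0.329 in Ctrl). Across 13019 protein-coding genes the Ctrl values were 0.190 for GC content and 0.258 for the length of the coding sequence, and 0.083 for gene length across 13029. In IR they were 0.158 and 0.355 across 13782 genes, and 0.204 for gene length across 13791, opposite in sign to the 41 genes. The 7 genes above Input in Ctrl had a median GC content of 57.0% and a median length of 12.6 kb, against 50.3% and 24.2 kb for the 34 below and 50.7% and 23.3 kb for protein-coding genes tested. The change of the ratio with IR had a correlation of 0.592 with gene length and -0.566 with GC content across the 41 genes, and of 0.221 and -0.053 across all coding genes. GGACT, the core of the m6A consensus, had 1.25 and 1.05 matches per kb of transcript in the genes above and below Input, and its density had a correlation of 0.021 with IP over Input. Genes share libraries and are not independent replicates, so these values are descriptions.

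**Figure D4:**
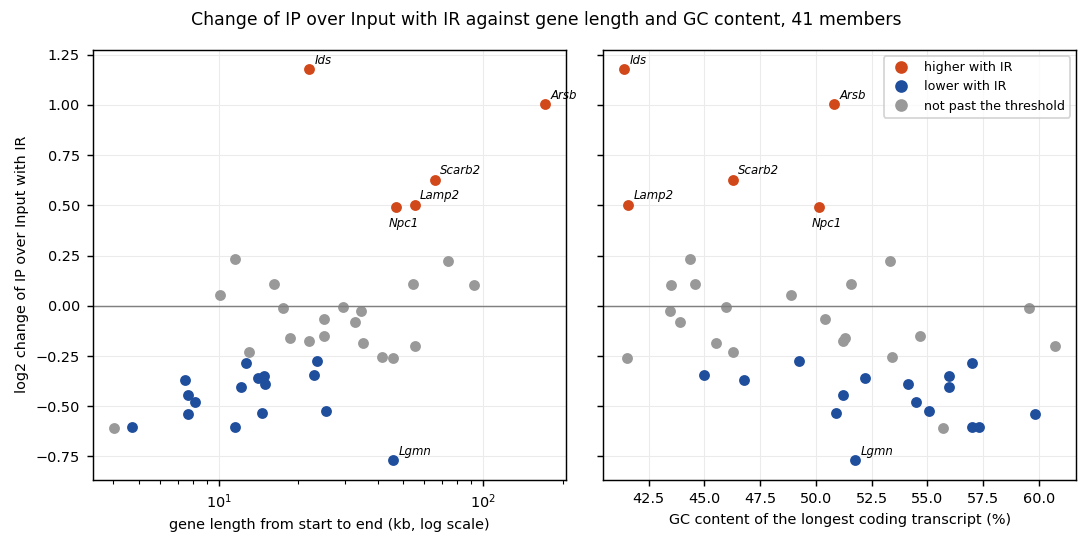
The log2 change of IP over Input with IR (vertical axis) is plotted for the 41 genes against gene length in kb on a log scale (left) and against the GC content of the transcript in percent (right), with orange points for higher and blue for lower past the threshold. The 5 genes with a higher ratio are named, and so is Lgmn, which has the lowest value. The 5 lie at long gene length or low GC content, and genes with a lower ratio lie mostly at short length. The transcript is the coding one with the longest coding sequence of each gene.

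Of 57 other genes of the lysosomal pathway, 56 could be tested. In Ctrl 13 were higher and 33 lower in IP (34.1% and 34.6% of all genes), and in IR 7 were higher and 38 lower (32.1% and 30.4%). The ratio was higher in IR for 2 and lower for 20 (6.28% and 13.9%), and abundance in the Input rose for 23 and fell for 7 (21.0% and 23.9%). The IP was higher for 2 and lower for 8 (6.12% and 9.85%). Of the 12 v-ATPase subunits not in the set, 10 were lower in IP in Ctrl and 11 in IR, and 7 rose and 1 fell in the Input. The largest enrichment was that of Mitf, the relative of Tfeb and Tfe3, at 2.36 in Ctrl and 1.86 in IR, followed by Dnase2a, the acid DNase, at 1.97 and 1.03. Lyz2, lysozyme, was the most depleted, at -3.24 and -3.14, followed by Lamtor3 in Ctrl (-2.03) and Atp6v1f in IR (-2.42). Igf2r and Sort1, which sort hydrolases to the lysosome, had rises of the ratio of 0.62 and 0.37 and fell in the Input by 0.37 and 0.42. Dnase2a and Acp2, an acid phosphatase, had falls of the ratio of -0.92 and -0.60, and in the IP Dnase2a fell by 0.64. Gnptab, which makes the mannose 6-phosphate tag, fell in the Input by 0.56 and in the IP by 0.51, while Aga and Laptm5 rose in the Input by 0.47 and 0.46 and Laptm5 and Lyz2 in the IP by 0.16 and 0.20.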

How the data were processed

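RIP-seq of 12 libraries was analysed. After trimming (Trimmomatic 0.39) and HISAT alignment (mm10, GENCODE M19), the authors deposited whole-number HTSeq counts per gene, without normalization, with 5 summary lines on uncounted reads that were kept out of library sizes. The strand option of the counting and any removal of duplicates are not given in the sources used here. The antibody is Aviva's and the kit one for total RNA in the study's methods, whereas the labels give an antibody of Abcam and mRNA.

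Symbols, exons and positions came from GENCODE M21 on the same build (99.9% of identifiers matched), with transcripts and GC content from the same release. TMM scaling was used, and genes that reached 10 counts in 3 or more of the compared libraries were tested with edgeR 4.0.16 (quasi-likelihood test, R 4.3.3), with Benjamini-Hochberg adjustment over all genes tested and a threshold of 0.05. TMM cannot show a change shared by most genes. DESeq2 1.42.0, the tool of the study's methods, was an alternative. CPM values were scaled by TMM over all 12 libraries together, and log2 fold changes come from the fit of each comparison. The SE is the size of the log2 fold change over the root of its F value. Steps were tested on simulated data.

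By the study's methods, Input was a part of the lysate used for the IP. IP and Input of the same number were taken as pairs, which the sample titles do not state. Their deviations correlated at -0.0045 to 0.015 in Ctrl and -0.019 to 0.0098 in IR, and the replicate block was an alternative. It changed 1 call among the IP to Input comparisons, that of Ctsk. A Ctrl pool and an IR pool with a number in common held different mice. Replicates differed by more than counting noise (variance-to-mean ratio 3.59 to 21.5).

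The member genes, role lists and further lists were chosen with earlier results of these data known. Values per library are given for up to 3 genes per role with the highest Input level per kb, and up to 3 per direction and comparison with the largest log2 fold change among called genes whose pools all had the same direction or whose groups did not overlap. Of the other pathway genes, up to 2 per direction and comparison are named. Further genes of the set are named where their role is described.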

Additional observations from a re-analysis of the deposited data

Results flagged for a closer look

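The ratio of IP to Input differed between Ctrl and IR for 21 of the 41 genes, by the interaction of fraction and condition in edgeR's quasi-likelihood test. It was higher in IR for 5 of them, with log2 changes of 1.18 for Ids, 1.003 for Arsb, 0.63 for Scarb2, 0.50 for Lamp2 and 0.49 for Npc1. It was lower for 16 of them, of which 2, Ctsz and Neu1, were also called under library size. Of all genes tested, 6.28% were higher and 13.9% lower. Among the cathepsins the changes were -0.60 for Ctsz, -0.48 for Ctsa, -0.40 for Ctsd and -0.28 for Ctsb. Among the other hydrolases they were -0.77 for Lgmn, -0.60 for Neu1, -0.54 for Naglu, -0.52 for Hexa, -0.39 for Man2b1, -0.37 for Tpp1, -0.36 for Gusb and -0.35 for Ppt1. The remaining 4 were -0.53 for Cln3, -0.45 for Atp6ap1, -0.35 for Mcoln1 and -0.28 for Tfe3. The share of reads outside genes rose with IR in the IPs and not in the Inputs, and its part in these changes was not tested. With 3 pools per group, no sample was tested for standing apart within its group.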

How the results depend on the processing

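Over all comparisons and alternatives, single genes stayed on their side of the threshold in 2356 cases. These include genes called in neither fit, whose sign could differ. Calls were lost in 121 cases and gained in 60 with the sign kept. In 5 cases the sign differed and the gene was called in the main fit or the alternative, but not in both. The cause was not tested. Under library size only, the change of the IP-to-Input ratio with IR was higher at 10 genes and lower at 2, and its median was 0.11. Among genes called under TMM or under library size, the values of Ctsb (0.036), Ctsc (0.23), Ctss (0.31), Atp6v1b2 (0.24) and Tfe3 (0.028) turned positive. Genes called under neither scaling that changed sign are not listed. In the IR IP, 18 genes were higher under library size. With each replicate left out, or the IP of IR replicate 1 alone (chosen after seeing the data), the ratio was higher at 3 to 6 genes and lower at 10 to 18, the Input fell at 3 to 7 genes, and the IP was higher at 1 to 7. With all 12 libraries in 1 fit, the Input fell at 1 gene, and the IP was higher at 12 and lower at 8. The Input changes of all genes shifted by a median of 0.079 in that fit. With at least 10 counts in every library 11 genes were higher in the IR IP, and with no filter 6 were lower. With the replicate block, 5 genes instead of 3 were lower in the IR IP (Ctsa and Ctsc added) and Tfeb was lower in the IR Input, where pools of a number share only that number. The block added the call of Ctsk in IR and ended no call of IP against Input or of the ratio. With libraries thinned at random to the smallest total, the ratio of Tpp1 (-0.32) and the Input falls of Ctsl (-0.17) and Gaa (-0.13) lost their calls and the Input of Glb1 (0.24) gained one. The thinning was a single draw, and depth was not told apart from the draw itself. Changes shared by most genes were not measurable.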
